A study of Homo sapiens with 9 samples.

Results

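The MYC, MAX and MXD network was followed in HMEC-1, a line of human dermal microvascular endothelial cells immortalised with the SV40 large T antigen, after treatment with trimethylamine-N-oxide (TMAO), a gut-derived metabolite. Its 9 members were taken by gene symbol (MYC, MAX, MNT, MXD1, MXD3, MXD4, MXI1, MLX and MGA) from the 29740 genes in the counts table. All 9 were among the 14740 genes with enough counts to be tested. The list was drawn up with the differences between these same groups already known, so the members count as chosen by their normalised counts in the 3 groups. Their values are therefore a description, with no test. Total RNA was sequenced in 3 groups of 3 libraries: untreated controls (CTRL), HMEC-1 given 50 µM TMAO for 24H, and HMEC-1 given 50 µM TMAO for 48H. According to the study, TMAO was given in serum-starved medium. Controls of both times had been pooled by the study, so no treated group has controls of its own time. Time in culture, time in serum-starved medium and TMAO therefore cannot be told apart, either between 48H and 24H or against CTRL. The 24H and 48H comparisons with CTRL also share the same control libraries. All libraries came from the same immortalised line, and the p-values measure only the spread between these libraries, which may be technical.

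MYC is a transcription factor of the basic helix-loop-helix leucine zipper family that binds the DNA word CACGTG, called an E-box, as a pair with MAX, and turns on genes of growth, ribosome production and metabolism. The MXD proteins (MXD1, MXD3, MXD4 and MXI1) and MNT compete for MAX, sit on the same words and bring in the SIN3 corepressor with its histone deacetylases, while MGA pairs with MAX inside a Polycomb complex. MLX takes the place of MAX in a parallel arm, where it pairs with MLXIP and MLXIPL, sensors of glucose metabolites. In endothelial cells MYC is known for its part in proliferation and vessel growth.

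The E-box is the sequence that the network reads, so the copies before the start sites of members and of some of the genes whose values are given below are shown first. In RefSeq promoter windows on GRCh38.p14 (250 bases before to 50 after a start), searched for CACGTG, which reads the same on both strands, 8 of the members had a window and 3 of these 8 (37.5%), MNT, MXD4 and MLX, held an E-box. Among all 27305 genes with a RefSeq window, whether expressed here or not, the share was 2396 genes (8.8%), and 2548 of 35116 windows (7.3%) held the word. The share among the 14740 tested genes was not taken, so 8.8% is not a background of expressed genes. For genes known to be activated by MYC it was 34 of 69 (49.3%), and for genes known to be repressed by MYC 2 of 9 (22.2%). For cofactors of the network, a list that also holds the targets TXNIP and ARRDC4, it was 6 of 35 (17.1%). A match is a description of the letters and not a binding site. The sequences run 5′ to 3′ on the gene's strand with the E-box in capitals.
MNT, chr17:2401231-2401270, minus strand: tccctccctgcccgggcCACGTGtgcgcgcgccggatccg
MXD4, chr4:2262325-2262359, minus strand: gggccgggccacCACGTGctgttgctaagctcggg
MLX, chr17:42567033-42567072, plus strand: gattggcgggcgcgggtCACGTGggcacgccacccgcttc
ARRDC4, chr15:97960476-97960515, plus strand: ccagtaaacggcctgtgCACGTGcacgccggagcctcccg
LDHA, chr11:18394361-18394400, plus strand: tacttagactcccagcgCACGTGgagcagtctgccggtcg
LDHA, chr11:18394459-18394498, plus strand: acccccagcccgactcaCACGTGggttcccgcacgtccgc
SLC1A5, chr19:46787321-46787360, minus strand: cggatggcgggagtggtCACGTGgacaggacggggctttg
SLC7A5, chr16:87869615-87869654, minus strand: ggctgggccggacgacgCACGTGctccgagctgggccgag
GADD45B, chr19:2475942-2475981, plus strand: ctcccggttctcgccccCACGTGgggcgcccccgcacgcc
The E-box of MNT began 193 bases before the start, that of MXD4 238 bases before it and that of MLX 50 bases before it. The windows of MAX, MXD1, MXD3, MXI1 and MGA held no CACGTG.

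Libraries held between 25205756 and 36927373 estimated counts. Nuclear ribosomal RNA genes took 30.73% of the counts in TMAO 24H replicate 1 and 0.9681% to 6.732% in the other 8 libraries. TMAO 48H replicate 3 stood apart in the keratin gene KRT5, with 125.4 normalised counts against 762.8 to 1630 in the other 8, and in EPCAM, with 37.97 against 202.1 to 289.8. The epithelial markers KRT14 (67.89 against 552.4 to 1067) and CDH1 (34.52 against 84.62 to 156) were low there as well. KRT18, the remaining epithelial marker, was not (17440 against 16660 to 21430). Normalised counts are estimated counts scaled by TMM factors to the mean library size. All 14 endothelial markers had enough counts to be tested. So did all 5 epithelial, all 6 smooth muscle or pericyte and 6 of 8 fibroblast markers, so this alone does not set the cell type. Summed endothelial markers were at 93460 to 103700 normalised counts in CTRL, 93010 to 98820 at 24H and 82500 to 89740 at 48H. Summed epithelial markers were at 21550 to 23710 in CTRL, most of it KRT18 (mean 20040). Of the 14 endothelial markers, 8 were lower at 48H than in CTRL by edgeR's adjusted p and none was higher, beside 5.29% of all genes called lower and 10.4% called in either direction. Summed fibroblast markers were at 28330 to 33100 in CTRL and 18200 to 19850 at 48H, and summed smooth muscle or pericyte markers at 4190 to 4619 and 5044 to 5428. Of 6 fibroblast markers tested, 3 were called lower at 48H (COL1A1, COL1A2 and FAP) and 1 higher (THY1, mean 458.9 in CTRL and 634.2 at 48H), COL1A1 and COL1A2 made up most of the sum, and DCN and LUM were at or near 0. Of 6 smooth muscle or pericyte markers, 2 were called higher and none lower. Only 1 of 6 leukocyte markers passed the filter on low counts, with a summed level of at most 46.68. Fewer cells of a type and less RNA per cell cannot be told apart in these bulk libraries, and the part of these shifts in the results below was not tested.

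The levels of the members spanned nearly an order of magnitude in CTRL. On the scale of normalised counts per kb of the longest annotated transcript, MYC was at 912 ± 51.7 (SD, n = 3 here and below), MAX at 638.2 ± 15, MXD4 at 588.8 ± 42.3, MLX at 483 ± 21.6 and MXD3 at 394.7 ± 22.6. Lower levels were found for MNT at 231.5 ± 8.42, MGA at 158.7 ± 12.4, MXI1 at 122 ± 5.63 and MXD1 at 98.91 ± 1.96. MAX and MXD4 were neighbours whose control libraries overlapped, at 622 to 651.8 and 542.9 to 626.1, while the libraries of the other neighbours in this order did not. Among the 13837 tested genes with a length, MYC lay at percentile 83.4 and MXD1 at percentile 32.5. The order depends on transcript length: per kb of the median transcript MAX came first at 2697 and MYC second at 1581. The log2 spread within groups was 0.0763 for MYC and 0.042 for MAX, against a median of 0.0925 over all genes tested.

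MYC was the member that differed most between groups, lower than CTRL in the 24H group and higher in the 48H group. Its level was 2067, 2297 and 2110 normalised counts in the 3 CTRL libraries. After 24H of TMAO it was 1794, 1639 and 1715, so all 3 treated libraries lay below every control. After 48H it was 2496, 2410 and 2694, and all 3 lay above every control. The group means were 2158 ± 122.3, 1716 ± 77.25 and 2533 ± 145.7. The log2 fold change was -0.33 (SE 0.0557) at 24H, or 0.795-fold, and 0.23 (SE 0.0557) at 48H, or 1.17-fold. From 24H to 48H the log2 fold change was 0.56 (SE 0.0558), or 1.48-fold, with no overlap between the groups.

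**Figure D1:**
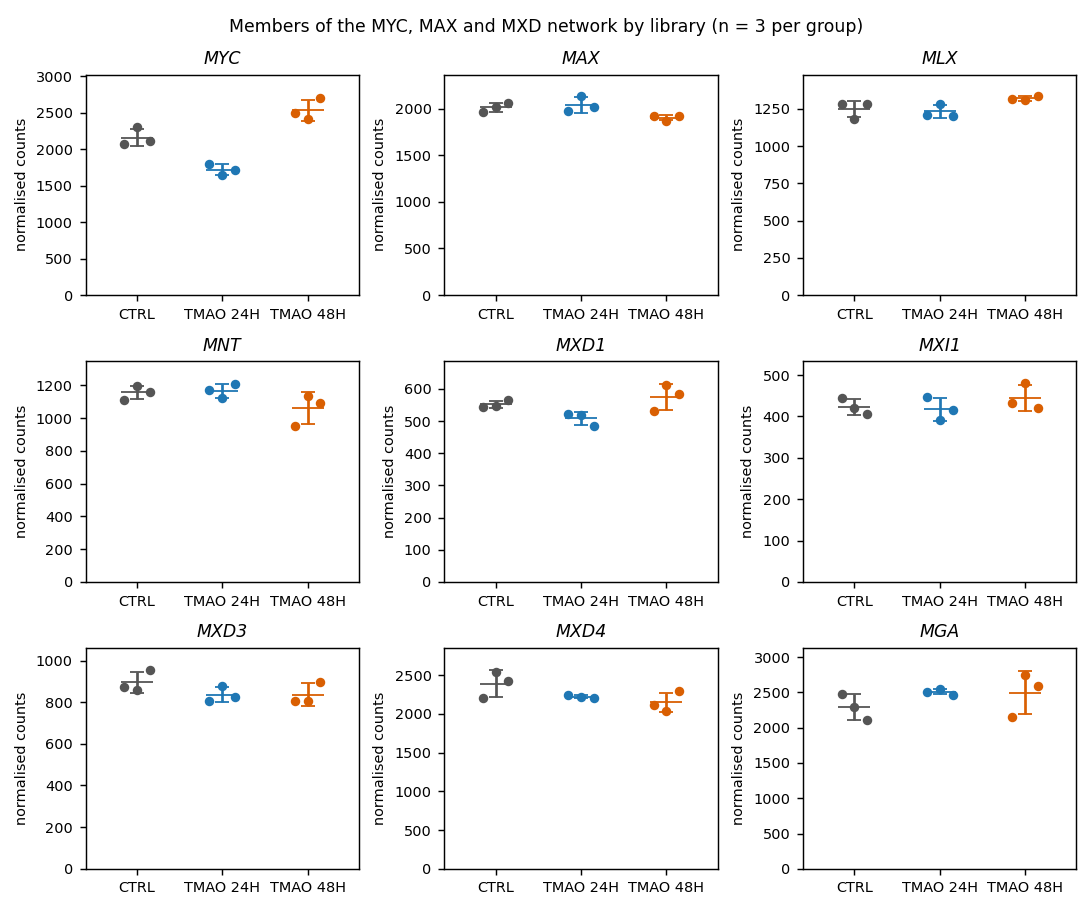
Normalised counts (vertical axes, from 0) of the 9 members in CTRL, TMAO 24H and TMAO 48H. Points are libraries, and the horizontal line and bars are the mean ± SD (n = 3); the groups are apart in all 3 comparisons for MYC, at 2067 to 2297, 1639 to 1794 and 2410 to 2694.

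MYC was also the only one of the 9 members past the call used throughout, a Benjamini-Hochberg adjusted p-value under 0.05 in edgeR's quasi-likelihood test over all genes. It was called lower at 24H, where 0.095% of all tested genes were called, and higher at 48H, where 10.4% were called, 5.13% higher and 5.29% lower. Between 48H and 24H it was called higher, with 7.52% of genes called, 3.77% higher and 3.76% lower. Because the members were picked with these results known, nothing is read from these counts. The call at 24H lay close to its threshold. It was lost when any CTRL library was left out (log2 fold changes of -0.36, -0.28 and -0.34 without replicates 1, 2 and 3), when any 24H library was left out (-0.36, -0.30 and -0.33) and without TMAO 48H replicate 2 (-0.33), as well as with RLE scaling or the legacy fit. The call at 48H was lost without CTRL replicate 1 (0.20), without CTRL replicate 3 (0.21) and without TMAO 48H replicate 3 (0.19), the library low in KRT5 and EPCAM. The call between 48H and 24H was made in all 9 of these fits, with log2 fold changes of 0.52 to 0.60. With the ribosomal RNA genes removed, MYC was called in all 3 comparisons.

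**Figure D2:**
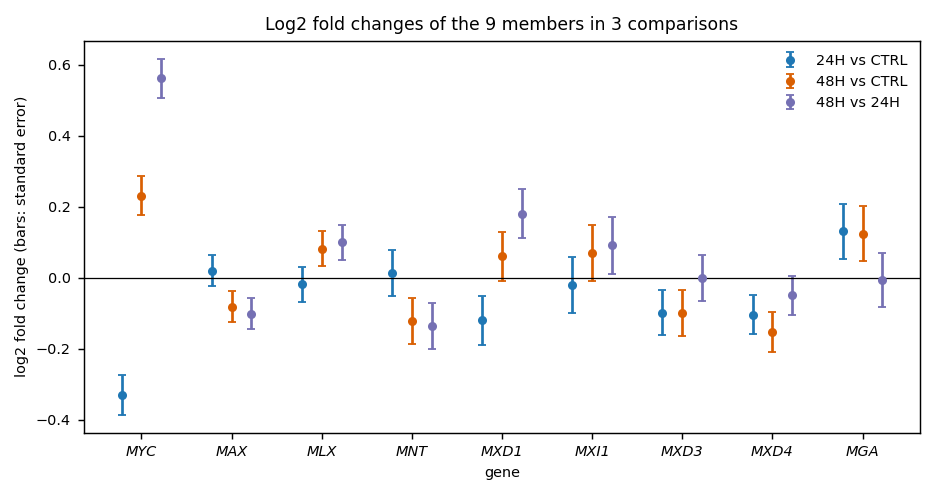
Log2 fold changes (vertical axis) of the 9 members for 24H against CTRL, 48H against CTRL and 48H against 24H. Points are edgeR estimates and bars are standard errors; MYC lies at -0.33, 0.23 and 0.56, while the other members lie between -0.15 and 0.18.

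MAX, the partner that MYC and its antagonists share, varied little between groups. Its normalised counts were 1963, 2022 and 2056 in CTRL, 1971, 2137 and 2017 at 24H, and 1924, 1869 and 1916 at 48H. The 24H libraries overlapped the controls, and the 48H libraries lay just below both other groups. The log2 fold change was 0.02 (SE 0.0436) at 24H, -0.08 (SE 0.0437; 95% interval -0.18 to 0.01) at 48H and -0.10 (SE 0.0437) between 48H and 24H. Counts of MYC per count of MAX were 1.07 ± 0.0586 in CTRL, 0.842 ± 0.0718 at 24H and 1.33 ± 0.0666 at 48H, and the 3 groups did not overlap. As MAX varied little, this ratio follows MYC, its numerator, and is not a separate observation. These are ratios of counts, not of protein.

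Among the repressors that compete for MAX, MXD1 was the one whose libraries came apart at 24H. The groups were also apart at 24H for 14.2% of all genes, 7.52% lower, so nothing is read from this. MXD1, a factor linked to cell differentiation, stood at 545.1, 547.6 and 565.2 normalised counts in CTRL, at 522.1, 517.9 and 485.2 at 24H and at 532, 612.1 and 584.5 at 48H. All 24H libraries lay below the controls and below the 48H libraries, whereas 48H and CTRL overlapped. Its log2 fold change was -0.12 (SE 0.0687) at 24H, 0.06 (SE 0.0687) at 48H and 0.18 (SE 0.0687; 95% interval 0.03 to 0.33) between the time-points, and none of these was called. The estimate for MXD1 between the time-points had the sign of that for MYC, at a smaller size, and a link between the 2 genes was not tested.

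MXD4 had the highest level of the repressors per kb of the longest transcript, though per kb of the median transcript MXD3 (764.1) lay above it (588.8). Its normalised counts were 2202, 2540 and 2423 in CTRL, 2238, 2220 and 2209 at 24H, and 2114, 2040 and 2288 at 48H. Treated and control libraries overlapped at both times. The log2 fold change was -0.10 (SE 0.056) at 24H and -0.15 (SE 0.056; 95% interval -0.27 to -0.03) at 48H, and MXD4 was called at 48H only when CTRL replicate 1 (-0.21) or TMAO 48H replicate 3 (-0.20) was left out.

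MXD3, MXI1 and MNT overlapped between all groups. MXD3, a repressor found in dividing cells, ranged from 859.2 to 954.1 normalised counts in CTRL, from 807.7 to 877.1 at 24H and from 804.9 to 898.7 at 48H, with log2 fold changes of -0.10 (SE 0.0645) and -0.10 (SE 0.0646). MXI1, also known as MXD2, ranged from 405 to 443.9, from 390.9 to 445.9 and from 421.1 to 480, with log2 fold changes of -0.02 and 0.07 (SE 0.0798 each). MNT, the broadly expressed antagonist of MYC, ranged from 1113 to 1197 in CTRL, from 1123 to 1209 at 24H and from 953.3 to 1137 at 48H, where the log2 fold change was -0.12 (SE 0.0647; 95% interval -0.26 to 0.02). The intervals of these genes leave room for changes of about the size seen for MXD1. The exons of MXD3 overlap those of RAB24 on the same strand and those of PRELID1 on the other, and its estimated counts were not whole in all 9 libraries, so they are less certain. The exons of MXD1 overlap SNRNP27 on the same strand, but the estimated counts of MXD1 were whole in all 9 libraries (tolerance 0.002).

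Summed over these 5 repressors, there were 2.51 ± 0.0954 repressor counts per MYC count in CTRL, 3.01 ± 0.12 at 24H and 2 ± 0.0929 at 48H. The libraries of the 3 groups did not overlap, at 2.42 to 2.61, 2.89 to 3.13 and 1.94 to 2.11. This ratio moved opposite to MYC, which is its divisor, and is not a separate observation.

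MLX and MGA, the members outside the MXD group, also differed little between groups. MLX stood at 1281, 1185 and 1282 normalised counts in CTRL, 1209, 1284 and 1205 at 24H and 1319, 1307 and 1338 at 48H. The 48H libraries lay above those of both other groups by a small margin, with a log2 fold change of 0.08 (SE 0.0495; 95% interval -0.03 to 0.19) against CTRL and 0.10 (SE 0.0495) against 24H. MLX shares exon sequence with PSMC3IP on the opposite strand, and its estimated counts were not whole in all 9 libraries. MGA was the member with the widest spread, at 2473, 2290 and 2114 in CTRL, 2511, 2546 and 2471 at 24H, and 2152, 2749 and 2594 at 48H. Its groups overlapped, with log2 fold changes of 0.13 and 0.12 (SE 0.0771 each), and MGA was called at 48H only without TMAO 48H replicate 1 (0.22). Over all 9 members, libraries did not overlap for 2 genes at 24H (MYC and MXD1, both lower), against 14.2% of all genes, 6.73% higher and 7.52% lower. At 48H they did not overlap for 3 (MYC and MLX higher, MAX lower), against 27.8% of all genes, 14.7% higher and 13% lower, and between the time-points for 4 (MYC, MXD1 and MLX higher, MAX lower), against 27.6% of all genes, 14.7% higher and 12.9% lower.

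TXNIP, an arrestin that restrains glucose uptake and a classic target of the MLX arm, rose at 48H. Its normalised counts were 3110, 2907 and 3285 in CTRL, 3412, 3740 and 3555 at 24H, and 4622, 4758 and 4246 at 48H. The 3 groups did not overlap and stood in the order CTRL, 24H, 48H. In edgeR's test TXNIP had a log2 fold change of 0.20 (SE 0.0557, adjusted p = 0.421) at 24H, 0.55 (SE 0.0558, adjusted p = 7.55e-05) at 48H and 0.35 (SE 0.0557, adjusted p = 0.00166) between the time-points. ARRDC4, the other target of this arm, was at only 4.481 to 16.11 normalised counts over the 9 libraries and was not called (log2 fold change 0.35, SE 0.527, at 48H). Of the partners of MLX, MLXIP lay between 2504 and 3048 normalised counts with a log2 fold change of -0.04 (SE 0.0751) at 48H, and MLXIPL, at 2.301 to 7.257, did not pass the filter. The window of TXNIP held no CACGTG, and that of ARRDC4 did.

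**Figure D3:**
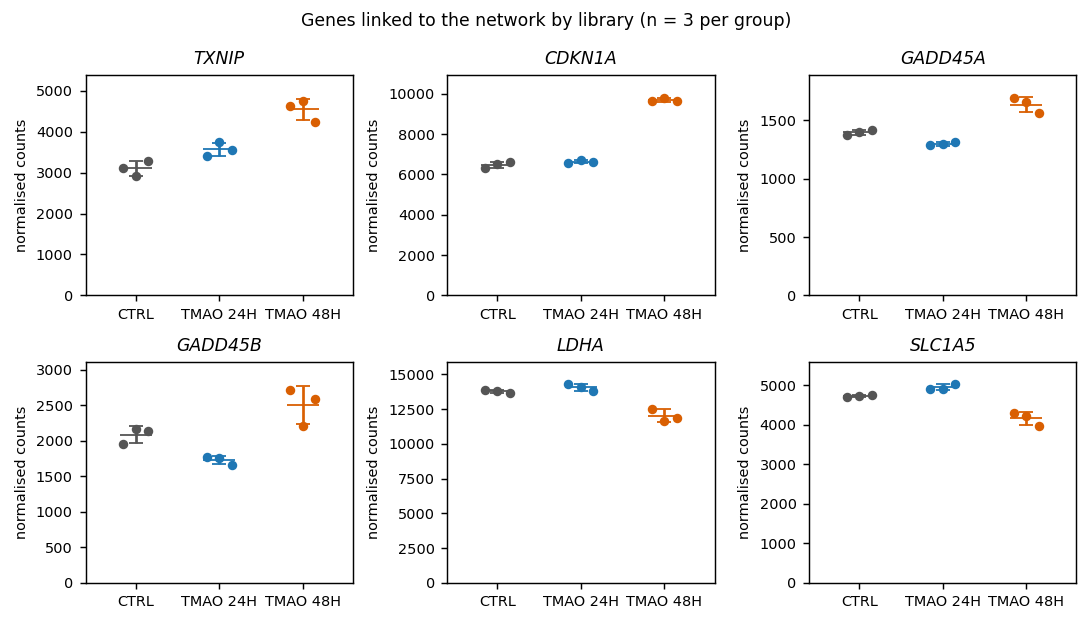
Normalised counts (vertical axes, from 0) of TXNIP, CDKN1A, GADD45A, GADD45B, LDHA and SLC1A5 in CTRL, TMAO 24H and TMAO 48H. Points are libraries, lines and bars the mean ± SD (n = 3); CDKN1A lies at 6300 to 6695 in CTRL and 24H and at 9644 to 9786 at 48H.

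TXNIP and ARRDC4 are targets and not cofactors, but they are counted in a list of 41 genes called cofactors of the network here. Of these, 40 were tested. At 48H, 2 rose (TXNIP and SKP2), 1 fell (KAT2A) and 37 did not pass, or 3 of 40 called against 10.4% of all genes. SKP2, a ubiquitin ligase subunit that marks MYC for degradation and also acts as its coactivator, went from 1854, 1815 and 1877 normalised counts in CTRL to 2115, 2115 and 2046 at 48H, which did not overlap (log2 fold change 0.18, SE 0.0438, adjusted p = 0.021, edgeR). KAT2A, a histone acetyltransferase recruited by MYC, fell at 48H with a log2 fold change of -0.17 (SE 0.0488, adjusted p = 0.0473, edgeR). Its call was lost when any of 8 of the 9 libraries was left out, all but TMAO 48H replicate 3. The call of SKP2 at 48H was lost without CTRL replicate 1 (0.18), CTRL replicate 2 (0.17) or TMAO 48H replicate 2 (0.17), so 1 cofactor was called in each of those 3 fits, and 5 were called without TMAO 48H replicate 3. Between the time-points TXNIP and SKP2 were called higher and none lower, beside 7.52% of all genes called, 3.77% higher. SKP2 (0.16, adjusted p = 0.0404, edgeR) lost this call in 6 of the 9 fits that left out 1 library, those without CTRL replicate 1 or 2, TMAO 24H replicate 1 or 3, or TMAO 48H replicate 1 or 2 (0.13 to 0.16). At 24H no cofactor was called by edgeR or DESeq2, while without adjustment 1 was higher and 2 were lower at p under 0.05. Over all 14740 genes edgeR called 0.095% at 24H, and without adjustment 408 were higher and 659 lower. Over the list, log2 fold changes had a median of 0.002 at 24H and of 0.002 at 48H, beside 0 and 0.004 over all genes tested.

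The MYC paralogues were far below MYC in counts. MYCN was at 210.3, 168.2 and 158.2 normalised counts in CTRL, 169.2, 136.1 and 148.6 at 24H and 138.5, 133.9 and 155.3 at 48H, and MYCL at 11.95 to 31.15 over the 9 libraries. The 48H libraries of MYCN lay below the controls, but its log2 fold change of -0.33 (SE 0.135) did not pass the test (adjusted p = 0.143, edgeR). Among the corepressor genes that the MXD proteins and MNT use, 0 of 7 were called by edgeR in any comparison, with 1 lower at an unadjusted p under 0.05 in each. The lower gene was SAP30 at 24H (log2 fold change -0.18, SE 0.0728), and SIN3B at 48H (-0.15, SE 0.0591) and between the time-points (-0.13, SE 0.0591). SIN3B was called at 48H without TMAO 48H replicate 3. At 48H 3 of the 7 lay above 0 and 4 below, with SIN3A at 0.05 (SE 0.0525), HDAC1 at 0.04 (SE 0.0415) and SAP30 at -0.13 (SE 0.0728). Of the 6 genes of the MGA complex, none was called by edgeR and none had an unadjusted p under 0.05. Over all genes tested, edgeR called 0.095% at 24H, 10.4% at 48H and 7.52% between the time-points.

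Genes known to be repressed by MYC through partners such as MIZ1 were led by CDKN1A, which encodes the cell cycle inhibitor p21. CDKN1A had 6300, 6520 and 6616 normalised counts in CTRL and 6548, 6695 and 6622 at 24H, which overlapped. At 48H it had 9644, 9786 and 9651, far above both other groups. The log2 fold change was 0.03 (SE 0.0362, adjusted p = 0.923) at 24H, 0.58 (SE 0.0364, adjusted p = 2.52e-06) at 48H and 0.55 (SE 0.0363, adjusted p = 2.25e-06) between the time-points in edgeR's test.

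GADD45A and GADD45B, stress-induced genes of growth arrest, had the same order of groups as MYC. GADD45A was at 1376, 1399 and 1418 normalised counts in CTRL, 1288, 1293 and 1316 at 24H, and 1688, 1653 and 1563 at 48H. GADD45B was at 1947, 2170 and 2129 in CTRL, 1772, 1754 and 1658 at 24H, and 2717, 2205 and 2589 at 48H. Neither gene's groups overlapped: the 24H libraries were lowest and the 48H libraries highest. In edgeR's test the log2 fold change of GADD45A was -0.10 (SE 0.0448, adjusted p = 0.671) at 24H, 0.23 (SE 0.0448, adjusted p = 0.00686) at 48H and 0.33 (SE 0.0448, adjusted p = 0.00044) between the time-points. That of GADD45B was -0.27 (SE 0.069, adjusted p = 0.337) at 24H, 0.27 (SE 0.069, adjusted p = 0.0273) at 48H and 0.53 (SE 0.0691, adjusted p = 0.000302) between them. The call of GADD45B at 48H was lost without CTRL replicate 1 (0.22), 2 (0.30) or 3 (0.28), or TMAO 48H replicate 1 (0.20) or 3 (0.24).

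Of the 13 MYC-repressed genes, all tested, these 3 rose at 48H, none fell and 10 did not pass, beside 10.4% of all genes called, 5.13% higher. Between the time-points the same 3 rose and NDRG1, a differentiation and hypoxia-responsive gene, fell, beside 7.52% of all genes called. NDRG1 stood at 4531, 4476 and 4356 normalised counts in CTRL, 4793, 4866 and 4966 at 24H, and 4123, 4194 and 4075 at 48H, so that its order was the reverse of that of MYC. Its log2 fold change was -0.24 (SE 0.0364, adjusted p = 0.00114, edgeR) between 48H and 24H. At 24H none of the 13 was called by edgeR or DESeq2, while without adjustment 1 was higher and 2 were lower at p under 0.05. Over all 14740 genes edgeR called 0.095% at 24H, and without adjustment 408 were higher and 659 lower. Over these 13 genes, log2 fold changes had a median of -0.034 at 24H and of 0.014 at 48H, beside 0 and 0.004 over all genes. Among the other cell cycle inhibitors CDKN1B had 0.10 (SE 0.0652, adjusted p = 0.354) and CDKN2B 0.16 (SE 0.0654, adjusted p = 0.13) at 48H by edgeR.

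Of the genes known to be activated by MYC, none passed the test at 24H, and those that passed at 48H were nearly all lower. Of 86 such genes, 85 were tested. At 24H, when MYC was lowest, none was called by edgeR or DESeq2, none had an unadjusted p under 0.05 in edgeR, and their log2 fold changes had a median of -0.001. Over all 14740 genes edgeR called only 0.095% at 24H, so the lack of calls is not read as a result. Without adjustment 408 of all genes were higher and 659 lower. At 48H, when MYC was highest, 1 rose, 9 fell and 75 did not pass, or 10 called of 85 against 10.4% of all genes. The median was -0.037 at 48H and -0.028 between 48H and 24H, beside 0.004 over all genes in both. The 9 lower genes were SLC2A1, BOP1, MYBBP1A, EIF4EBP1, LDHA, SLC1A5, TBRG4, GRWD1 and NOP2, and the higher gene was TFAM.

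Nutrient uptake and glycolysis held 3 of the 9 lower genes, out of 10 tested in that group, beside 5.29% of all genes called lower and 10.4% called in either direction. SLC2A1, the glucose transporter GLUT1, was at 2052, 2061 and 1715 normalised counts in CTRL, 1783, 1762 and 1934 at 24H, and 1523, 1657 and 1514 at 48H, with a log2 fold change of -0.31 (SE 0.0691, adjusted p = 0.0126, edgeR) at 48H. The 48H libraries were below all controls, though CTRL replicate 3 was lower than the other 2 controls, and the call was lost without CTRL replicate 1 (-0.27) or 2 (-0.27). LDHA, lactate dehydrogenase A, with 2 E-boxes in its window, was at 13890, 13800 and 13670 in CTRL, 14290, 14120 and 13800 at 24H, and 12540, 11660 and 11860 at 48H. Its log2 fold change was -0.20 (SE 0.0409, adjusted p = 0.00885, edgeR) at 48H, a call lost without TMAO 48H replicate 2 (-0.18), and -0.23 (SE 0.0409, adjusted p = 0.00386, edgeR) between the time-points. SLC1A5, a glutamine transporter, was at 4699, 4744 and 4747 in CTRL, 4914, 4921 and 5037 at 24H, and 4291, 4231 and 3985 at 48H. It fell by 0.18 on the log2 scale at 48H (SE 0.0386, adjusted p = 0.0102, edgeR) and had a log2 fold change of -0.25 (SE 0.0387, adjusted p = 0.00129, edgeR) between the time-points. SLC7A5, a leucine transporter, was at 2530 to 2825 in CTRL, 2683 to 2899 at 24H and 2235 to 2554 at 48H, and was called only between the time-points (-0.23, SE 0.056, adjusted p = 0.0261, edgeR), a call lost without TMAO 24H replicate 1 or 3 or TMAO 48H replicate 1 or 3 (-0.23 to -0.18).

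Ribosome biogenesis held 4 of the 9 lower genes, out of 38 tested, beside 10.4% of all genes called and 5.29% called lower, so the group is given for its genes and not for its count. BOP1, a factor of the large ribosomal subunit, was at 1798, 1883 and 2054 normalised counts in CTRL, 1701, 1830 and 1853 at 24H, and 1666, 1442 and 1556 at 48H. Its log2 fold change at 48H was -0.30 (SE 0.0629, adjusted p = 0.00987, edgeR), and the call was lost without TMAO 48H replicate 2 (-0.25). MYBBP1A, a nucleolar protein, was at 3138, 3080 and 2870 in CTRL, 2750, 2788 and 3030 at 24H, and 2356, 2569 and 2599 at 48H (-0.27 at 48H, SE 0.0535, adjusted p = 0.00651, edgeR). The 48H libraries of both genes lay below every control. NCL, which encodes nucleolin, had a log2 fold change of 0.05 (SE 0.0657) and NPM1 of -0.01 (SE 0.0485) at 48H, and neither was called. Genes of the cell cycle group (7 tested) and of nucleotide and polyamine synthesis (14 tested) had 0 called at 48H by edgeR, with 0 and 3 lower at an unadjusted p under 0.05. TFAM, the mitochondrial DNA packaging factor, rose by 0.16 on the log2 scale (SE 0.0475, adjusted p = 0.0472, edgeR) at 48H, and this call was lost when any library but TMAO 48H replicate 3 was left out.

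**Figure D4:**
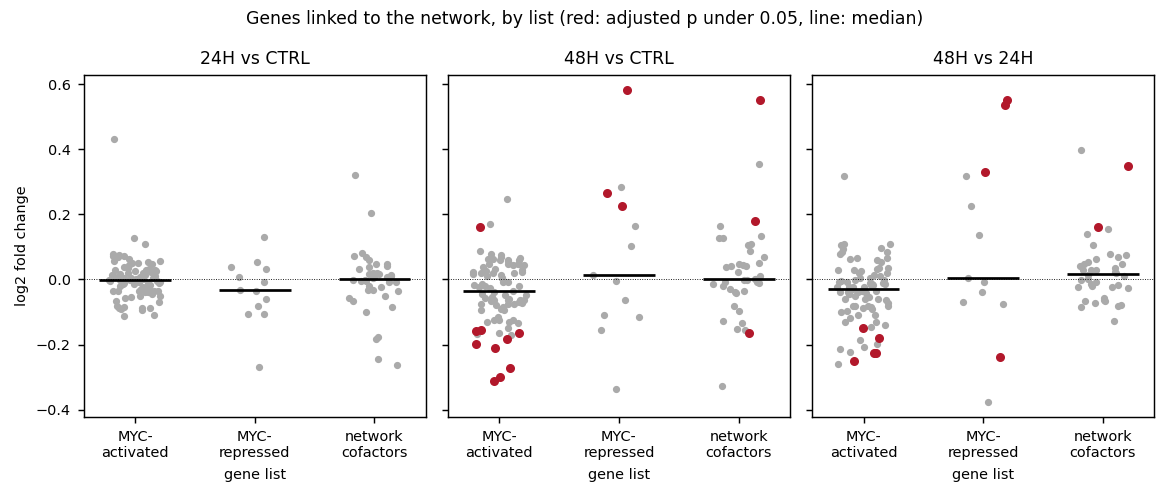
Log2 fold changes (vertical axis) of 85 MYC-activated genes, 13 MYC-repressed genes and 40 network cofactors in the 3 comparisons. Points are genes, red where the adjusted p-value was under 0.05, and lines are list medians; at 24H no gene was red, and at 48H 9 of the 10 red MYC-activated genes lay below 0.

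The counts of called MYC-activated genes were sensitive to single libraries and to base composition. At 48H the count of 10 went to 5 without CTRL replicate 1 or any of the 3 TMAO 24H libraries, and to 4 without CTRL replicate 2 or TMAO 48H replicate 2. Over all genes, 756 were called higher and 780 lower at 48H with all libraries. These counts fell as well, to 465 and 487 without CTRL replicate 1 and to 362 and 422 without CTRL replicate 2. They were 312 and 388 without TMAO 48H replicate 2, and 580 to 603 and 615 to 686 without a TMAO 24H library. The drop is therefore not read as particular to this list. With offsets for GC content, chosen after seeing the data, 3 MYC-activated genes were called at 48H, beside 499 higher and 486 lower over all genes. Of these 3, SLC2A1 and LDHA were also among the 10. The calls of BOP1, MYBBP1A, SLC1A5 and TFAM at 48H and of SLC7A5 between the time-points were lost, as were those of SKP2 and KAT2A. Between 48H and 24H, 5 of the 85 tested were called and all were lower (SLC1A5, LDHA, SLC7A5, TBRG4 and GART). Of all genes, 7.52% were called in this comparison and 3.76% were called lower. The count of 5 became 2 without TMAO 24H replicate 1 or 3, 3 without CTRL replicate 2, TMAO 24H replicate 2 or TMAO 48H replicate 2, and 9 without CTRL replicate 3. Over all genes 555 higher and 554 lower became 313 and 339 without TMAO 24H replicate 1, and 597 and 685 without CTRL replicate 3. Of the tested genes with a promoter window, the 33 with an E-box had a median log2 fold change of -0.049 at 48H and the 35 without had -0.021. In both groups 4 genes were called, and this difference in medians was not tested.

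The genes whose pattern over the 9 libraries was most like that of MYC were JUN, HBEGF, ID3, CITED2 and SGK1. Likeness was the root mean square difference of log2 CPM (library-scaled counts), each gene centred on its own mean, over 12328 genes with a mean of at least 50 normalised counts. JUN, a subunit of the AP-1 factor, was nearest at 0.0336, with log2 fold changes of -0.31, 0.26 and 0.57 at 24H, at 48H and between the time-points. HBEGF, a ligand of the EGF receptor, followed at 0.0429 (-0.27, 0.22 and 0.48). ID3, an inhibitor of other helix-loop-helix factors, was at 0.0623 (-0.26, 0.18 and 0.44), CITED2, a partner of the p300 coactivator, at 0.0676 (-0.22, 0.26 and 0.48), and SGK1, a kinase, at 0.0731 (-0.36, 0.21 and 0.57). All 5 had 24H libraries below every control, and 4 of them, all but ID3, had 48H libraries above every control. As these genes were picked for their likeness, no test is given for them.

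**Figure D5:**
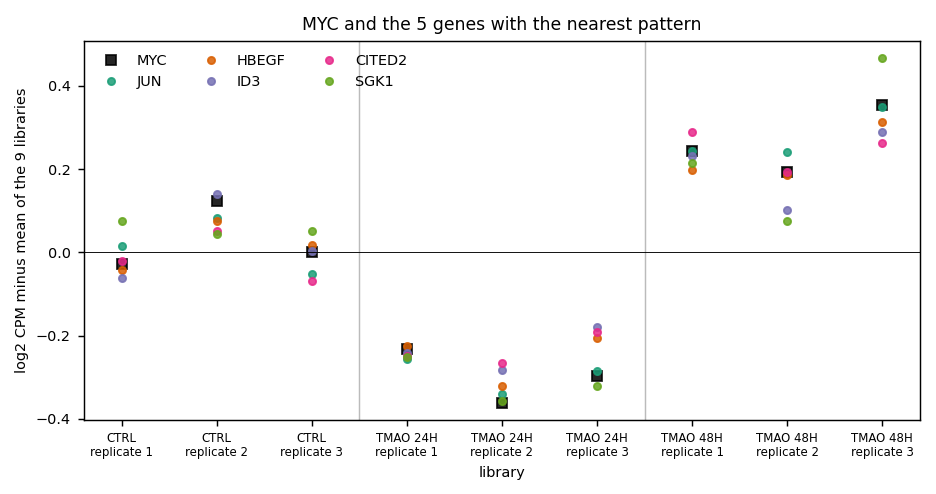
Log2 CPM minus each gene's mean over the 9 libraries (vertical axis) for MYC and the 5 genes with the nearest pattern, by library (horizontal axis). Points are libraries of each gene; all lie below 0 in the TMAO 24H libraries and above 0 in the TMAO 48H libraries, as the genes were chosen for this likeness.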

How the data were processed

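Total RNA libraries of HMEC-1 were processed by the authors with nf-core RNAseq version 3.6 (with Trim Galore, per the submitters' processing notes), and expected counts per gene symbol were deposited without normalisation. The quantifier, strand setting, genome build and annotation are not given in the sources used here. Groups and replicate numbers came from the labels.

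Estimated counts were rounded. In R 4.3.3, edgeR 4.0.16 was run with filterByExpr, TMM factors and a quasi-likelihood fit (legacy = FALSE) of all 9 libraries, with Benjamini-Hochberg adjustment over 14740 genes. DESeq2 1.42.0, RLE factors, no filter, the legacy fit, a 1.4-fold minimum, a replicate block, removal of ribosomal RNA genes, GC offsets and leaving out each library were alternatives. On simulated counts for 48H against CTRL, 70 of 100 genes changed 1.4-fold and 84 of 100 changed 2-fold were recovered, with 11 false calls among 14740 genes. The spread simulated was that fitted to genes of similar level (median dispersion 0.00364), without a spread of each gene's own and without a library set apart. Changes under 1.4-fold were not simulated, so these rates do not cover the smaller changes given above. Intervals are 95% intervals from the fit. An exact permutation test of 3 against 3 libraries cannot go below 0.1. Transcript lengths came from GENCODE release 29 and promoters from RefSeq.

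The members and lists were chosen with earlier results of these data known. Named genes were the members, TXNIP, ARRDC4, CDKN1A, per list and comparison the 3 largest called rises and falls with a mean of at least 50 normalised counts, and the 5 genes nearest to MYC; other names were chosen after their values were seen.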

Additional observations from a re-analysis of the deposited data

Results flagged for a closer look

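Among MYC and the genes of the 3 lists named by size of change, 10 genes differed between the 48H and 24H groups in edgeR. In this direct comparison of the treated groups 1109 of all 14740 genes were called. It has no controls of matching time, so time in culture, time in serum-starved medium and TMAO cannot be told apart in it. MYC had a log2 fold change of 0.56 between 48H and 24H, which belongs to the values its choice rested on. Among genes outside the 9 members, higher values at 48H were found for CDKN1A (0.55), GADD45B (0.53), TXNIP (0.35), GADD45A (0.33) and SKP2 (0.16). Lower values at 48H were found for SLC1A5 (-0.25), NDRG1 (-0.24), LDHA (-0.23) and SLC7A5 (-0.23). TBRG4 (-0.18) and GART (-0.15), with smaller changes, were called lower as well. In all of the 10 the 3 libraries of 48H lay on 1 side of the 3 libraries of 24H. The share of all genes without overlap was 27.6%. As the 10 were picked by their calls in these same libraries, nothing is read from this.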

How the results depend on the processing

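No result changed sign among called values under the alternatives run. Requiring a 1.4-fold change left 0 of 9 members called at 24H and 0 at 48H, 1 cofactor at 48H and 0 between the time-points, 0 MYC-activated genes at 48H and 0 between the time-points, and 1 and 2 MYC-repressed genes. RLE scaling and the legacy fit each left 0 members at 24H, and the legacy fit 1 cofactor between the time-points. Without the filter on low counts 6 MYC-activated genes were called at 48H, and 3 and 1 cofactor between the time-points. DESeq2 called 9 MYC-activated genes between the time-points. Without ribosomal RNA genes 1 cofactor was called between the time-points. GC offsets, added after seeing the data, left 1 cofactor at 48H and 1 between the time-points, and 3 MYC-activated genes at 48H. With the replicate number as a block, 0 members were called at 24H and 0 at 48H, 1 cofactor at 48H and 1 between the time-points, and 5 and 2 MYC-activated genes. The numbers are not taken to pair libraries: deviations of libraries with the same number correlated at -0.12 to 0.091 (9 pairs), others at -0.1 to 0.16 (18 pairs).

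Leaving out 1 library gave 0 to 1 members called at 24H, 0 to 2 at 48H and 1 between the time-points, 1 to 5 and 1 to 2 cofactors at 48H and between the time-points, 4 to 9 and 2 to 9 MYC-activated genes, and 2 to 4 and 4 to 5 MYC-repressed genes. None of these fits called a gene of the 3 lists at 24H. Over all genes the same fits called 312 to 751 higher and 388 to 908 lower at 48H. Between the time-points they called 288 to 597 higher and 270 to 685 lower. Per kb of the median transcript, CTRL levels were 1581 for MYC, 2697 for MAX, 524.6 for MLX, 764.1 for MXD3, 412.8 for MNT, 648 for MGA and 476.2 for MXI1. Where a count moved, the cause was not tested.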
